A study of Mus musculus with 6 samples.

Results

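The proteasome genes were taken from a table of read counts per gene in mouse embryonic stem cells, as the protein-coding genes whose symbols start with Psma, Psmb, Psmc, Psmd, Psme, Psmf or Psmg followed by a digit. Of 27179 identifiers in the table, 50 met this rule, and 2 of these carry the name of a binding partner without being part of the particle. These 2 were Psmc3ip, a meiotic recombination factor, and Psme3ip1, a partner of Psme3. The other 48 genes encode 8 alpha and 7 beta subunits of the 20S core, 6 ATPases and 11 other subunits of the 19S cap, 4 immunoproteasome or thymoproteasome subunits, 5 activators and inhibitors, and 7 assembly chaperones. A further protein-coding gene with such a name, Psme2b, had no row in the table, and 6 pseudogenes with such names had none either.

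The series compared mouse embryonic stem cells in which FLAG-tagged Trim71 was either wild type (WT) or carried the amino-acid change R783H, which the series title links to hydrocephalus. Trim71 belongs to the TRIM-NHL proteins and binds mRNA. All cells had the ES-E14TG2a background and were grown on gelatin in medium with LIF, a little serum and the inhibitors CHIR99021 and PD0325901. Poly(A)-selected RNA was sequenced in 3 libraries of each group, lettered A to C. Whether a letter stands for a clone, a culture or a library preparation is not stated, so the p-values measure the spread between these libraries, which may be technical.

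The proteasome degrades proteins that carry ubiquitin chains. Its barrel-shaped 20S core is built of rings of alpha subunits, which form the gate, and rings of beta subunits, of which Psmb5, Psmb6 and Psmb7 hold the active sites. The 19S cap binds and unfolds substrates, with a ring of ATPases at its base. Cells exposed to interferon exchange the catalytic subunits for Psmb8, Psmb9 and Psmb10, and other activators, such as those made from Psme1, Psme2, Psme3 and Psme4, can take the place of the cap. Subunit genes are known to be induced together by the transcription factor Nfe2l1 (Nrf1) when proteasome activity is low.

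Total counts were 27807385 to 29079670 in the R783H libraries and 20894277 to 25174121 in the WT libraries. Levels are given as CPM, the counts of a gene per 1e+06 counts of a library after TMM scaling. Pairs of libraries of a group differed by more than sampling noise, with a chi-square per degree of freedom from 1.95 to 11.6, and R783H B stood furthest from its group. The 10 stem cell markers summed to 7663 to 7882 CPM in every library, though 2 of them rose and 3 fell, with log2 fold changes of -0.36 to 0.30, whereas fibroblast, primitive endoderm and blood markers summed to at most 3.86, 10.9 and 4.95 CPM. Among the primitive endoderm markers 2 of 5 rose and 0 fell, where 33.5% of all tested genes rose, with sums of 10.1 to 10.9 CPM in R783H and 4.77 to 6.73 CPM in WT (their part in the results was not tested). Trim71 mRNA stood at 152, 129 and 150.5 CPM in R783H A, B and C and at 131, 131 and 159 CPM in WT A, B and C. Its log2 fold change was 0.03 (SE 0.08, edgeR adjusted p = 0.743), and the groups overlapped, while with an offset for transcript length and GC content it was called lower (-0.24, edgeR adjusted p = 0.00305). A count per gene cannot show the R783H codon itself, so it does not check the labels.

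Transcripts of nearly the whole particle were lower in R783H cells. Of the 45 proteasome genes that passed the filter on low counts, 40 fell, 2 rose and 3 were not called (edgeR's quasi-likelihood test, adjusted p under 0.05), where 64.5% of all 14199 tested genes were called, 30.9% lower and 33.5% higher. DESeq2 called 41 of them lower and 2 higher, where it called 58.7% of all genes, 29.7% lower and 29.1% higher. The median log2 fold change of R783H over WT was -0.43, a ratio of 0.740, beside 0.03 over all tested genes. Of the 31 ordinary core and cap subunits, that is without the germ cell subunit Psma8, 30 fell and 0 rose. In 41 of the 45 genes every R783H library lay below every WT library, as in 33.1% of all tested genes, and 68.1% of all tested genes did not overlap in one direction or the other. The 3 genes that did not pass the filter were Psmb8, Psmb9 and Psmb11, so the 45 are not the whole set.

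**Figure D1:**
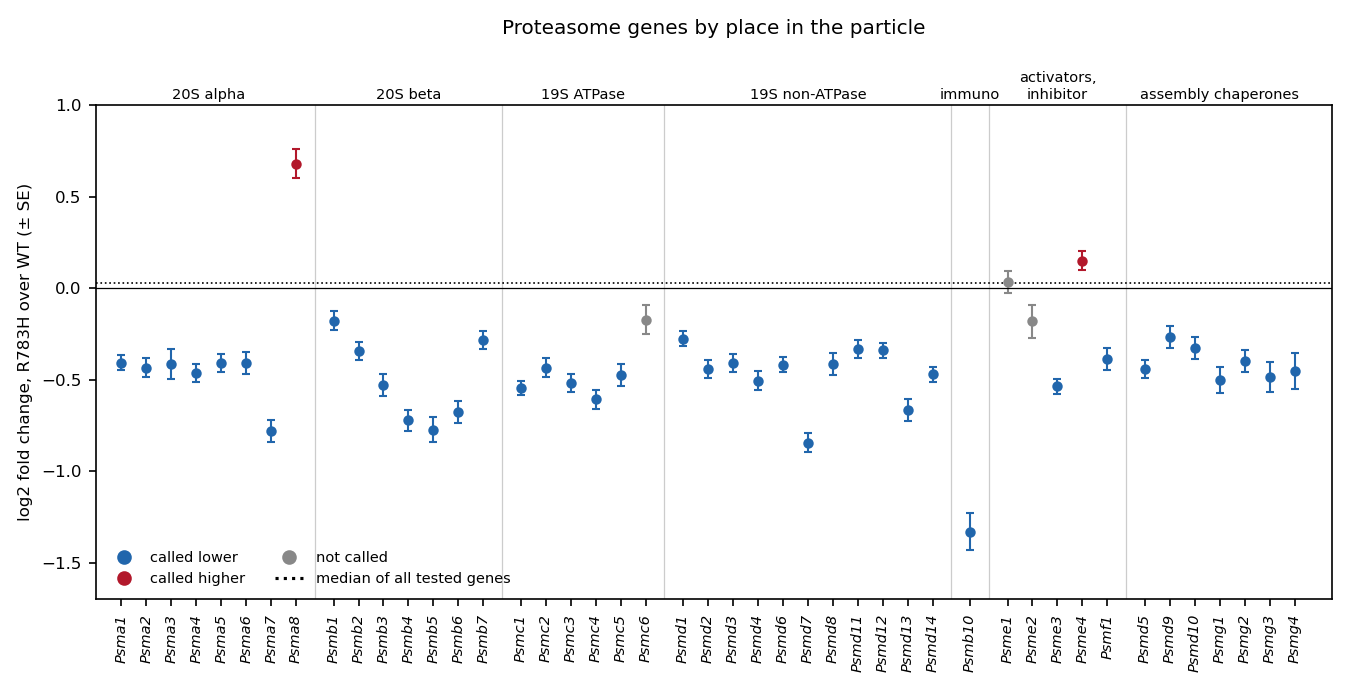
Log2 fold change of R783H over WT (y axis, ± SE) for the 45 tested proteasome genes, grouped by their place in the particle, with the median of all tested genes as a dotted line. Most genes lie between -0.3 and -0.6, Psmb10 lies lowest at -1.33, and Psma8 lies highest at 0.68.

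Added up, the 48 genes took 0.726%, 0.776% and 0.721% of all counts in the R783H libraries A to C. In the WT libraries the shares were 0.96%, 0.951% and 0.935%. In CPM after TMM scaling the sums were 7027, 7609 and 7003 in R783H and 9926, 9765 and 9599 in WT, a ratio of means of 0.739. The groups did not overlap on either scale. The falls were of like size, with the middle 50% of the log2 fold changes between -0.52 and -0.34, a width of 0.18, beside 0.68 over all tested genes. A fall of at least 1.5-fold was called for 8 of the 45 genes, as for 9.54% of all tested genes. In bulk RNA, fewer cells with high levels and less RNA per cell cannot be told apart.

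R783H B lay closest to WT among the R783H libraries for 39 of the 40 genes that fell. Over the whole table R783H B was also the nearest to WT. Its chi-square per degree of freedom against single WT libraries was 70.4 to 72.6, beside 77.6 to 86.4 for R783H A and C. The nearness of R783H B was thus not particular to the proteasome genes. The share of all tested genes for which R783H B lay closest was not counted. Relative to the WT mean, the median proteasome gene stood at -0.48 in R783H A, -0.35 in R783H B and -0.48 in R783H C on the log2 scale, and between -0.03 and 0.04 in the WT libraries. Without R783H B, 41 genes fell and 2 rose, and the median was -0.49; in that fit 69.1% of all tested genes were called, 34.3% lower and 34.7% higher.

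**Figure D2:**
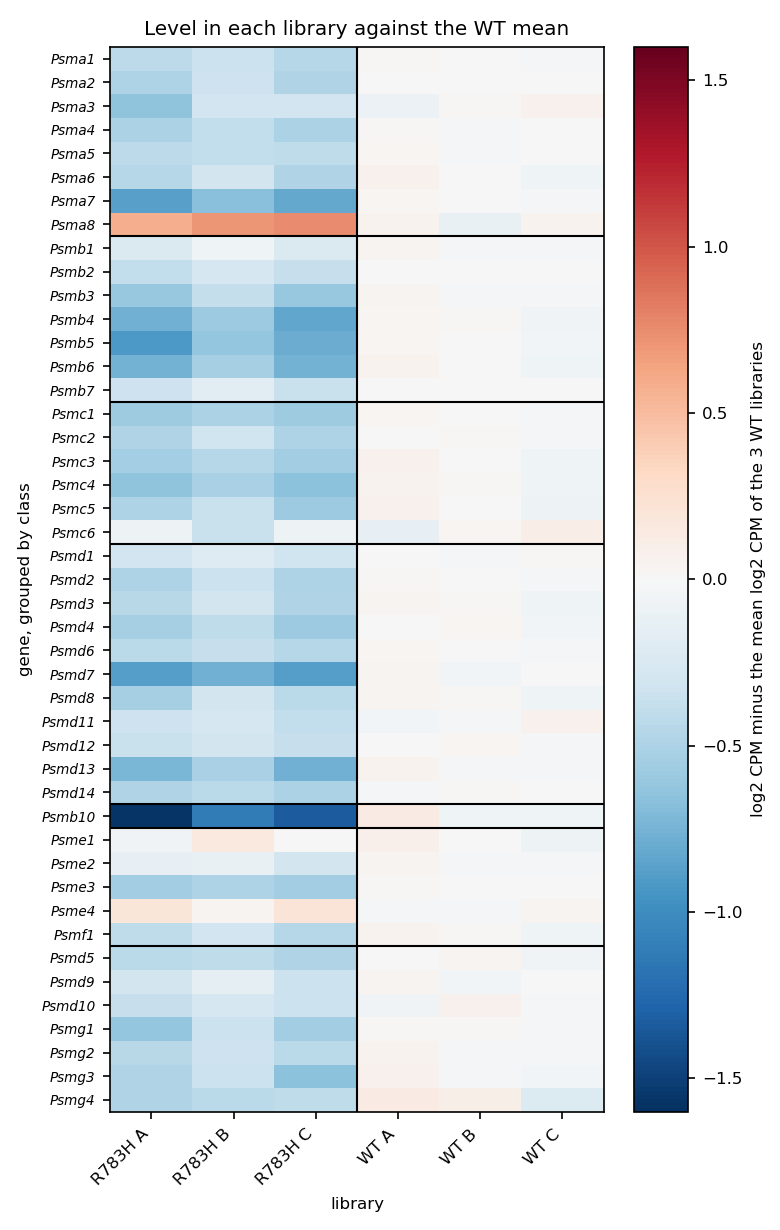
Level of each tested proteasome gene (rows, grouped by class) in each library (columns), as log2 CPM minus the mean log2 CPM of the 3 WT libraries; blue is lower and red is higher. The R783H columns are blue in nearly every row, palest in R783H B, where the median was -0.35, and Psma8 stands out in red.

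The stretches below show where the core of the antioxidant response element, the element that Nfe2l1 and Nfe2l2 bind, occurs just upstream of proteasome genes, since these genes moved together. RefSeq promoter windows on GRCm38.p6 were matched for 40 of the 48 genes, and the 250 bases before each start site were searched on both strands for TGACNNNGC. A match was found for 5 of the 40 genes (12.5%), namely Psmb5, Psmb6, Psmc6, Psmd9 and Psmd12, and for 14.1% of 10400 tested protein-coding genes. Over all 32851 windows of the table the share was 10.2%, against 11.6% of the 43 windows of proteasome genes. CCAAT was found for 35% of the proteasome genes and 41.1% of the tested protein-coding genes, and CACGTG for 10% and 10.1%. By window, CCAAT was found in 32.6% of those of proteasome genes and 33.8% of all windows. For CACGTG the window shares were 9.3% (4 of 43) and 6.02%. No matches of different motifs overlapped in the windows of proteasome genes. Counted per gene, the shares of the proteasome genes thus lay near or below those of other genes. A match describes the letters and not a bound site. The 4 matches outside the transcribed part of the gene are printed 5′ to 3′ on the strand that reads TGACNNNGC, in capitals, with up to 20 bases on each side.
Psmb5 (chr14:54618014-54618062, minus strand, 47 bases before the start site): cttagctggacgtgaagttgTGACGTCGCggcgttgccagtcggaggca
Psmd9 (chr5:123228139-123228187, plus strand, 31 bases before the start site): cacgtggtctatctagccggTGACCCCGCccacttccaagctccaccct
Psmd12 (chr11:107479278-107479309, minus strand, 247 bases before the start site): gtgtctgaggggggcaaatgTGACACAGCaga
Psmc6 (chr14:45329577-45329625, minus strand, 227 bases before the start site): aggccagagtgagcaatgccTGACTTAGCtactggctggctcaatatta
Of these 4 genes Psmb5 had a log2 fold change of -0.77, Psmd9 of -0.27, Psmd12 of -0.34 and Psmc6, which was not called, of -0.17. The genes with a match thus spanned much of the range of the core and cap.

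In the alpha rings all 7 ordinary subunits fell, and the germ cell subunit Psma8 rose, where 30.9% of all tested genes fell and 33.5% rose. Psma1 (alpha6), Psma2 (alpha2), Psma3 (alpha7), Psma4 (alpha3), Psma5 (alpha5) and Psma6 (alpha1) had log2 fold changes between -0.46 and -0.41. Psma7 (alpha4; Entrez 26444, chr2:180036367-180042464) fell furthest, from 235, 228 and 224 CPM in WT A, B and C to 125, 144 and 130.0 CPM in R783H. Its log2 fold change was -0.78 (SE 0.06, edgeR adjusted p = 5.63e-07), and the groups were far apart. Psma8 (Entrez 73677), which takes the place of Psma7 in the proteasomes of spermatocytes, rose from 15, 13.3 and 15 CPM in WT A, B and C to 21.5, 23.5 and 24.3 CPM in R783H. Its log2 fold change was 0.68 (SE 0.08, edgeR adjusted p = 1.66e-05), without overlap. Per kilobase of transcript Psma7 stood at 250.3 RPKM in WT and 146 RPKM in R783H, far above Psma8 at 8.54 and 13.7 RPKM. The pair that shares a position in the ring moved in opposite directions, and Psma7 was the more abundant transcript in both groups.

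In the beta rings all 7 ordinary subunits fell, where 30.9% of all tested genes fell. Their range of log2 fold changes was wider, from -0.77 to -0.18. The 3 catalytic subunits differed in how far they fell. Psmb5 (beta5, the chymotrypsin-like site; Entrez 19173, chr14:54614120-54617995) fell from 84.0, 82.7 and 80.1 CPM in WT A, B and C to 43.5, 53.6 and 47.3 CPM in R783H. Its log2 fold change was -0.77 (SE 0.07, edgeR adjusted p = 3.1e-06), without overlap. Psmb6 (beta1, the caspase-like site) fell by 0.68 on the log2 scale, and Psmb7 (beta2, the trypsin-like site) by 0.28. Psmb4 (beta7; Entrez 19172, chr3:94884324-94886958) fell from 453, 447 and 425.5 CPM in WT A, B and C to 259, 294.5 and 249 CPM in R783H, with a log2 fold change of -0.72 (SE 0.06, edgeR adjusted p = 1.69e-06). Psmb3 (beta3) fell by 0.53 and Psmb2 (beta4) by 0.34. Psmb1 (beta6) fell least, by 0.18 (SE 0.05, edgeR adjusted p = 0.0103), and was not called when libraries were scaled by size alone (-0.10, adjusted p = 0.101) or with an offset for transcript length and GC content (-0.08, adjusted p = 0.14).

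The immunoproteasome subunits were scarce, and the one with ample counts fell furthest of all tested proteasome genes. Psmb10 (beta2i; Entrez 19171, chr8:105935728-105938392) fell from 44.8, 38.9 and 38.9 CPM in WT A, B and C to 13.7, 18.8 and 16.2 CPM in R783H, that is from 904, 953 and 830 counts to 412, 533 and 480 counts. Its log2 fold change was -1.33 (SE 0.10, edgeR adjusted p = 1.01e-06), and the groups were far apart. Against Psmb7, the constitutive subunit that it replaces, Psmb10 counts amounted to 13.5%, 11.7% and 11.9% in WT A, B and C and to 5.21%, 6.40% and 6.29% in R783H. The log2 ratio was lower by 1.05 in R783H, with an exact two-sided permutation p of 0.1, the smallest that 3 libraries against 3 can give (adjusted p = 0.1 over the 2 pairs compared). Psmb10 thus fell further than the subunit it stands in for.

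Psmb9 (beta1i; Entrez 16912) was counted 7, 7 and 5 times in the WT libraries A to C, and 2, 3 and 2 times in the R783H libraries. The ratio of the pooled counts, scaled to library size, was 0.276 with an exact 95% interval from 0.0982 to 0.687 that covers counting error only. Its counts in the R783H libraries lay at or under the floor of 3 counts, so no log2 ratio to Psmb6, the other pair compared, is given. Psmb8 (beta5i; Entrez 16913) had 5 counts over the R783H libraries and 1 over the WT libraries, and the thymus subunit Psmb11 (beta5t; Entrez 73902) had 3 and 1. No library held more than 3 counts of either gene, which is the floor of detection used here (0.0998 to 0.149 CPM), so no fold is given. Psmb8 against Psmb5 gave no ratio, since a library had no Psmb8 count.

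Of the 6 ATPases at the base of the cap, 5 fell, where 30.9% of all tested genes fell. Psmc4 (Rpt3; Entrez 23996, chr7:28041702-28050092) fell furthest, from 344, 335 and 315 CPM in WT A, B and C to 211, 231 and 210.4 CPM in R783H, with a log2 fold change of -0.61 (SE 0.05, edgeR adjusted p = 1.89e-06). Psmc1 (Rpt2; Entrez 19179, chr12:100110202-100123364) fell from 275, 269 and 266 CPM to 182.5, 190.1 and 182 CPM, with a log2 fold change of -0.54 (SE 0.04, edgeR adjusted p = 8.33e-07). Neither gene overlapped between the groups. Psmc3 (Rpt5), Psmc5 (Rpt6) and Psmc2 (Rpt1) fell by 0.52, 0.47 and 0.43 on the log2 scale. Psmc6 (Rpt4) was the exception, at 102, 83.8 and 102 CPM in R783H A, B and C and 97.8, 110 and 116 CPM in WT A, B and C. Its groups overlapped, and it is given in full after its values were seen. The log2 fold change of -0.17 (SE 0.08) had an edgeR adjusted p of 0.083. It was called lower in 8 of the 16 alternative settings, among them DESeq2 (-0.19, adjusted p = 0.0297) and the fit without R783H A (-0.23, adjusted p = 0.0419), with adjusted p from 4.86e-05 to 0.367 over the alternatives.

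All 11 other subunits of the cap fell, with log2 fold changes from -0.84 to -0.28, where 30.9% of all tested genes fell. Psmd7 (Rpn8, the structural partner of the deubiquitinase Psmd14; Entrez 17463, chr8:107580380-107588482) fell furthest of all core and cap subunits. It stood at 412, 390 and 400.2 CPM in WT A, B and C and at 217, 235 and 217.5 CPM in R783H, with a log2 fold change of -0.84 (SE 0.05, edgeR adjusted p = 1.26e-07). Psmd14 itself (Rpn11) fell by 0.47 on the log2 scale, so the partners differed in size of change. Psmd13 (Rpn9; Entrez 23997, chr7:140882394-140898642) fell from 313, 295 and 294.5 CPM to 181, 211 and 177 CPM, with a log2 fold change of -0.67 (SE 0.06, edgeR adjusted p = 4.68e-06). The large scaffold subunits Psmd2 (Rpn1) and Psmd1 (Rpn2) fell by 0.44 and 0.28. The ubiquitin receptor Psmd4 (Rpn10) fell by 0.50. The lid subunits Psmd6 (Rpn7), Psmd8 (Rpn12), Psmd3 (Rpn3), Psmd12 (Rpn5) and Psmd11 (Rpn6) fell by 0.42, 0.42, 0.41, 0.34 and 0.33.

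**Figure D3:**
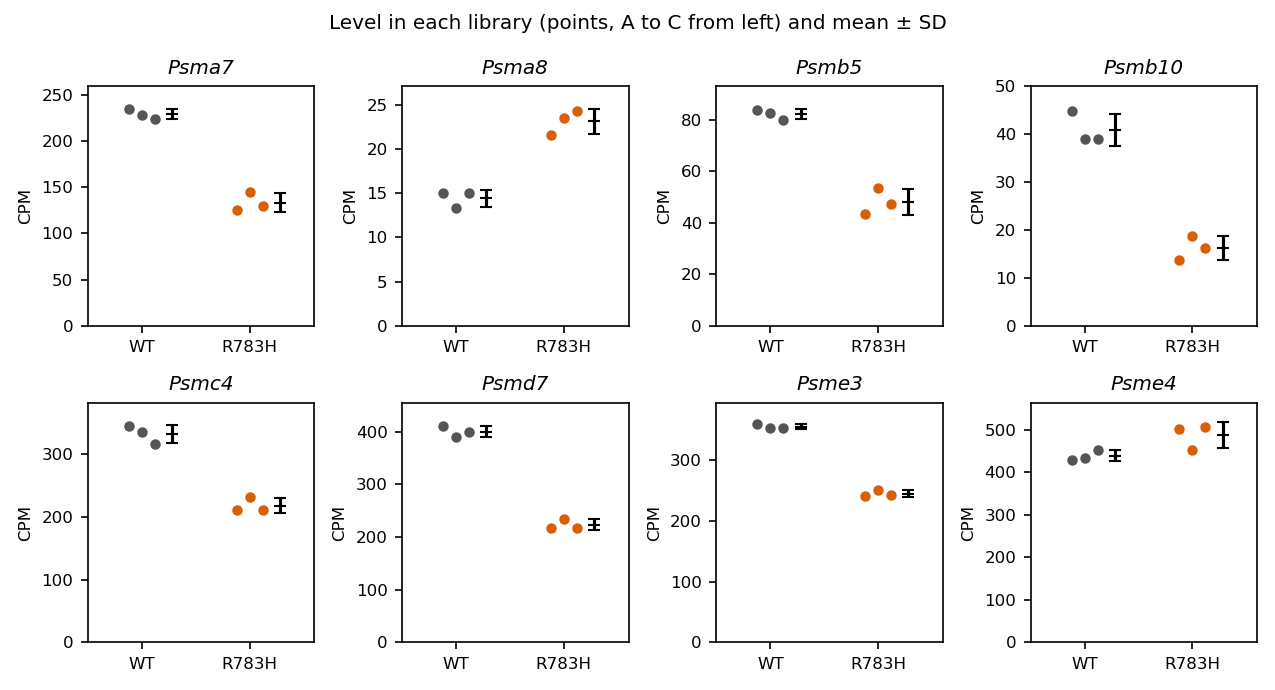
CPM (y axes, from 0) of 8 proteasome genes in each library, with points for A, B and C from left to right and the mean ± SD beside them. Psma7, Psmb5, Psmb10, Psmc4, Psmd7 and Psme3 are lower in all R783H libraries than in all WT libraries, Psma8 is higher in all of them, and Psme4 overlaps.

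Per kilobase of transcript the 14 core subunits had a median of 199 RPKM in WT and 146 RPKM in R783H, the 6 ATPases 190.2 and 132 RPKM, and the 11 other cap subunits 159 and 120 RPKM. The lowest were Psma3, Psmc6 and Psmd11 of these 3 sets in both groups. Each gene has the length of a single transcript here (2846 nt for Psma3), and a shorter or longer message in these cells would shift its level. Psmb10 stood at 31.2 RPKM in WT and 12.4 RPKM in R783H, below every ordinary core and cap subunit but Psma3 in WT, and below all of them in R783H.

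The activators and the inhibitor did not move as a unit. Psme3, which forms the nuclear PA28gamma ring (Entrez 19192, chr11:101316213-101323537), fell from 360.0, 353 and 353 CPM in WT A, B and C to 241, 252 and 242 CPM in R783H. Its log2 fold change was -0.54 (SE 0.04, edgeR adjusted p = 7.78e-07). Psmf1, the inhibitor PI31 (Entrez 228769, chr2:151716062-151744199), fell from 58.9, 57.3 and 54.1 CPM to 43.0, 46.1 and 41.3 CPM, with a log2 fold change of -0.39 (SE 0.06, edgeR adjusted p = 1.38e-04). Both fell by amounts within the range of the core and cap.

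Psme4, the large activator PA200 known from spermatogenesis and DNA repair (Entrez 103554, chr11:30771775-30881150), stood at 502, 452 and 507 CPM in R783H A, B and C and at 428, 434 and 453 CPM in WT A, B and C. Its log2 fold change was 0.15 (SE 0.05, edgeR adjusted p = 0.022), and the groups overlapped because R783H B lay just under WT C. The call was lost without R783H A, R783H C, WT A or WT B (0.11 to 0.14), and the sign turned with the length and GC offset (-0.06, adjusted p = 0.0876). The interferon-inducible PA28 subunits Psme1 and Psme2 were not called. The mean ± SD of Psme1 (n = 3 libraries a group) was 80.9 ± 6.44 CPM with R783H and 78.9 ± 4.18 CPM with wild-type Trim71, and that of Psme2 was 8.40 ± 0.576 and 9.52 ± 0.246 CPM. With the offset Psme1 was called higher (0.22, edgeR adjusted p = 1.31e-04), and without R783H B Psme2 was called lower (-0.23, edgeR adjusted p = 0.0428).

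All 7 assembly chaperones fell, where 30.9% of all tested genes fell. Psmg1 (PAC1; Entrez 56088, chr16:95979933-95990960) fell from 104, 104.5 and 100.5 CPM in WT A, B and C to 67.1, 81.3 and 69.8 CPM in R783H, with a log2 fold change of -0.50 (SE 0.07, edgeR adjusted p = 5.78e-05). Psmg3 (PAC3; Entrez 66506, chr5:139823613-139826894) fell from 24.9, 23.2 and 23.1 CPM to 17.0, 18.8 and 15.1 CPM, with a log2 fold change of -0.49 (SE 0.08, edgeR adjusted p = 3.70e-04). Psmg2 (PAC2) and Psmg4 (PAC4), which complete the chaperone pairs that build the alpha ring, fell by 0.40 and 0.45. The chaperones of the cap base, Psmd5, Psmd9 and Psmd10 (gankyrin), fell by 0.44, 0.27 and 0.33. Of the 2 genes named after a partner, Psmc3ip fell by 0.22 and Psme3ip1 by 0.35, and Psmc3ip lost its call with the length and GC offset (-0.08, edgeR adjusted p = 0.333), with library size alone (-0.14, edgeR adjusted p = 0.106) and without WT C (-0.17, edgeR adjusted p = 0.0717).

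Transcript length moved with the fold changes. Proteasome transcripts were short, with a median of 1440 nt over the 45 tested genes against 2984 nt over the 13067 tested genes with a length, and fold changes rose with length over all those genes (Spearman's rho 0.26, across genes, which are not independent replicates). Among the 45 proteasome genes rho was 0.30. With an offset that takes out the smooth trend with length and GC content, 40 of the 45 genes were called lower and 2 higher, beside 68.8% of the 13067 genes called, 33.3% lower and 35.5% higher. Of the 40 genes that fell without the offset, 39 also fell with it. Of the genes that fell, the change was more than 1.5 times smaller with the offset in Psma1, Psma5 and Psma6 (-0.26 each). The same held for Psmb1 (-0.08, no longer called), Psmb2 (-0.18), Psmb7 (-0.14), Psmd8 (-0.27), Psmd10 (-0.21), Psmg2 (-0.25) and Psmg3 (-0.29). Psme2, called in neither fit, went from -0.18 to -0.00. The median was then -0.32, beside 0.02 over all genes, a smaller difference than without the offset.

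**Figure D4:**
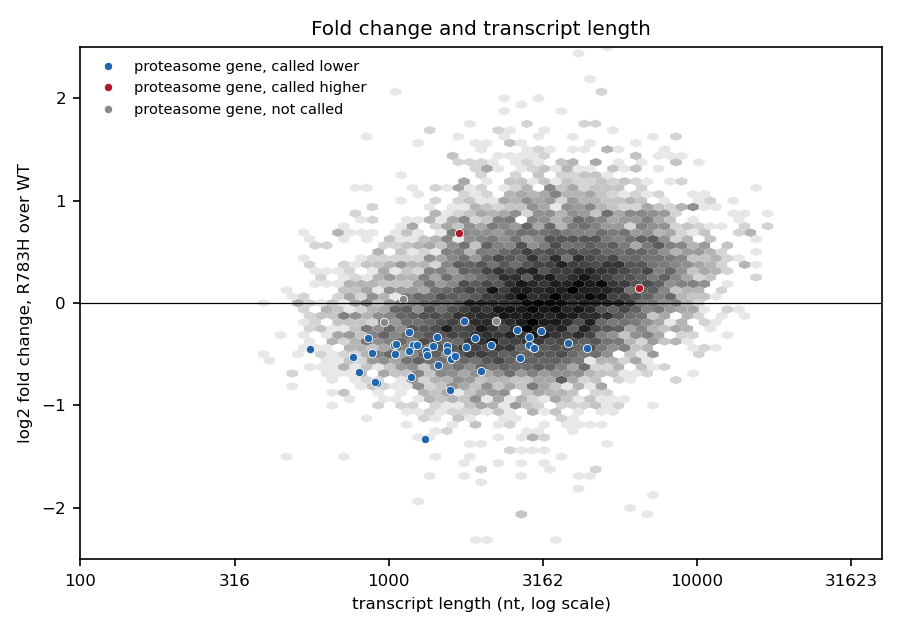
Log2 fold change of R783H over WT (y axis) against transcript length (x axis, log scale) for tested genes, as grey bins that are darker with more genes, and for the proteasome genes as points; genes beyond the axes are not drawn. The points lie mostly at the short end, around 1440 nt, and in the lower part of the grey cloud at their length.

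Genes that work beside the proteasome were read from a list of 42, of which 39 were tested; 19 fell and 6 rose, with a median log2 fold change of -0.16, where 30.9% of all tested genes fell and 33.5% rose. When libraries were scaled by size alone, 12 were called lower and 9 higher, where 65.3% of all tested genes were called, 25.4% lower and 40% higher. Of the 5 proteasome genes that the naming rule misses, 3 fell, and Ecpas and Akirin2, with log2 fold changes of -0.11 and -0.01, were not called. Ecpas was called lower with the length and GC offset (-0.34, edgeR adjusted p = 3.73e-06), and both are named after their values were seen. Adrm1 (Rpn13, a ubiquitin receptor) fell from 45.9, 46.1 and 41.2 CPM in WT A, B and C to 29.6, 32.3 and 27.7 CPM in R783H, with a log2 fold change of -0.57 (SE 0.07, edgeR adjusted p = 3.39e-05), or -0.35 with the offset. Pomp, which matures the core, fell from 135, 131 and 126 CPM to 99.3, 107 and 101 CPM (log2 fold change -0.35, SE 0.05). Sem1, the smallest cap subunit, fell from 124, 127.5 and 119 CPM to 111, 106 and 108 CPM (log2 fold change -0.19, SE 0.05), and was not called when libraries were scaled by size alone (-0.11, edgeR adjusted p = 0.0565). Of 6 factors that bind the particle, 5 fell, Uchl5, Txnl1, Usp14, Ube3c and Zfand5, and Zfand2a rose by 0.31. Zfand5 (-0.16) was not called with library size alone (-0.07, edgeR adjusted p = 0.294), without WT A (-0.13, edgeR adjusted p = 0.128) or without WT B (-0.15, edgeR adjusted p = 0.105), and Ube3c (-0.17) was not called with library size alone (-0.09, edgeR adjusted p = 0.0926). With the offset Usp14, Ube3c and Zfand5 stood at -0.44, -0.31 and -0.44. Uchl5, the deubiquitinase held by Adrm1, fell from 69.9, 82.4 and 76.7 CPM to 54.3, 47.4 and 55.4 CPM (log2 fold change -0.54, SE 0.07). Zfand2a and the other 4 apart from Uchl5 are named after their values were seen.

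Of 9 shuttle and unfolding factors 7 fell and 0 rose, where 30.9% of all tested genes fell and 33.5% rose. Ddi2, the protease that activates Nfe2l1, fell from 68.3, 70.4 and 70.2 CPM in WT A, B and C to 47.6, 47.2 and 47.8 CPM in R783H (log2 fold change -0.55, SE 0.05, edgeR adjusted p = 1.71e-06), or -0.86 with the offset. Rad23b, a shuttle for ubiquitinated proteins, and Vcp, the unfolding ATPase, fell by 0.53 and 0.45, and are named after their values were seen. Of 6 tested regulators 3 rose and 1 fell, counts that do not stand apart from the 33.5% and 30.9% of all tested genes. Nfe2l1 rose from 255, 254 and 251.5 CPM to 284, 281 and 277.5 CPM (log2 fold change 0.15, SE 0.04, edgeR adjusted p = 0.00541), without overlap, and its change was 0.07 with the offset and 0.23 with library size alone. Ngly1, the glycanase needed for Nfe2l1 activity, rose from 7.58, 6.89 and 7.17 CPM to 9.88, 9.09 and 10.4 CPM (log2 fold change 0.45, SE 0.09). Nfe2l2 rose by 0.44 and Foxo4 fell by 0.40, both named after their values were seen. Transcripts of Nfe2l1 were thus higher in the libraries in which most proteasome transcripts were lower.

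Of the ubiquitin genes, Rps27a, which encodes ubiquitin fused to a ribosomal protein, fell by 0.32 (-0.18 with the offset) and the polyubiquitin gene Ubb fell by 0.17, both named after their values were seen. Ubb lost its call in 6 of 16 alternative settings, and Rps27a and Ubb have near-identical copies elsewhere in the genome. Among the partners named above, Adrm1, Ddi2, Ecpas, Usp14 and Vcp also share near-identical sequence with another gene. Of 8 tested genes for interferon response and antigen processing, 1 rose and 1 fell, where 33.5% of all tested genes rose and 30.9% fell. B2m, the light chain of class I molecules, rose from 9.55, 10.5 and 9.19 CPM to 18.2, 17.4 and 15.4 CPM (log2 fold change 0.80, SE 0.09, edgeR adjusted p = 1.60e-05). H2-D1, named after its values were seen, fell by 0.26 and was not called with the length and GC offset (-0.15, edgeR adjusted p = 0.103). B2m thus rose where Psmb10, which belongs to the same presentation pathway, fell.

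**Figure D5:**
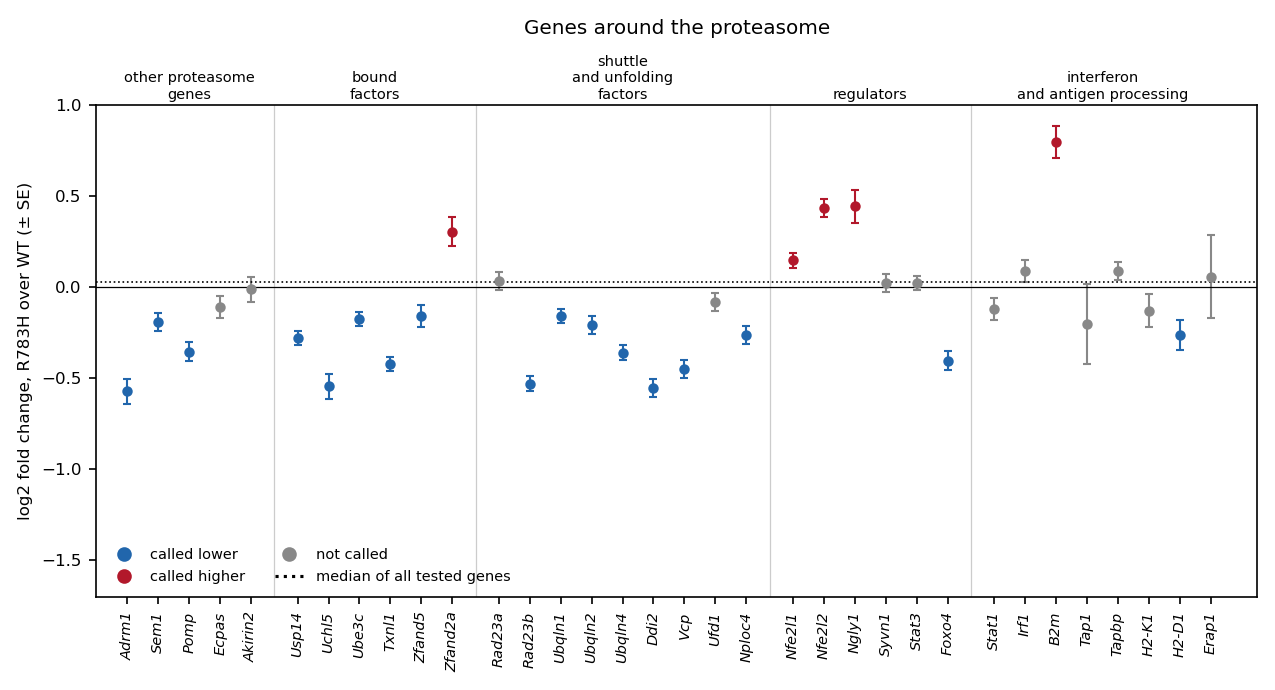
Log2 fold change of R783H over WT (y axis, ± SE) of the tested genes around the proteasome, by role and without the ubiquitin genes, with the median of all tested genes as a dotted line. Shuttle, unfolding and bound factors lie mostly below 0, and B2m at 0.80 lies highest.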

How the data were processed

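Read counts per Entrez gene were deposited by the authors as whole numbers without normalization; per the submitters' processing notes CASAVA 1.4, HISAT2 and SAMtools were used with mm10, and the counting tool, annotation and use of strand are not given in the sources used here. Groups came from the library titles, and 0 columns of the table belonged to no library. Symbols and coordinates came from RefSeq on GRCm38.p6, which is the mm10 assembly, and matched 25275 of 27179 identifiers; promoter windows came from the same source.

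Genes were kept with filterByExpr (minimum count 10, minimum total 15), which left 14199, scaled with TMM factors and tested with the quasi-likelihood test of edgeR 4.0.16 in R 4.3.3, group being the sole term, and p-values were adjusted by Benjamini-Hochberg across the 14199 genes, with calls made at an adjusted p under 0.05. The SE is the size of the log2 fold change divided by the square root of F. RPKM is CPM per kilobase of a single GENCODE M21 transcript per gene. This was the longest APPRIS principal transcript with a consensus coding sequence (CCDS), else the longest coding transcript, else the longest of any type. The members, lists and tests were chosen with earlier results of these data known. The genes given with values in each library were Trim71, the 2 largest called changes of each class at 50 or more counts on average, called genes opposite to their class, the immunoproteasome, up to 3 called partners in each direction, and Nfe2l1, Pomp, Adrm1 and Sem1. Psmc6 was added after its values were seen, and the values of some listed genes are not reported here.

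Total counts per library were 20894277 to 29079670, so 3 counts, the floor of detection, were 0.0998 to 0.149 CPM. The labels mention no molecular identifiers, so intervals and floors cover counting error only. On simulated counts of 14199 genes the test called 96 of 100 genes changed 2-fold and 83 of 100 changed 1.5-fold. It made 6 calls among unchanged genes. Only these few genes were changed there, evenly up and down, while 64.5% of all tested genes were called in the data. The rates of the simulation may therefore not hold for this comparison. Alternatives were RLE, upper-quartile and no scaling factors, other filters, DESeq2 1.42.0, limma-trend (limma 3.58.1, prior count 2), equal depth, a replicate block, a length and GC offset (mgcv 1.9.3) for the 92.0% of genes with both values, and leaving out each library. By BLAST 2.17.0 (98% identity over 100 nt) and exon overlap in that annotation, 15 of the 48 genes share sequence with another gene: Psma3, Psma4, Psma5, Psmb5, Psmb7, Psmb8, Psmb9, Psmc3, Psmd1, Psmd3, Psmd9, Psmd13, Psme1, Psme2 and Psmg3. Among the other named genes, the same holds for Trim71, Psmc3ip, Psme3ip1, Adrm1, Ddi2, Ecpas, Ngly1, Rps27a, Txnl1, Ubb, Usp14 and Vcp. The counts of all these genes are uncertain as far as the counting split or dropped such reads.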

Additional observations from a re-analysis of the deposited data

How the results depend on the processing

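Over 16 alternatives the number of proteasome genes called lower ran from 39 (library size alone) to 42 (no filter on low counts), and 40 of the 42 called genes kept call and direction in each alternative; the exceptions were Psmb1 and Psme4. Leaving out 1 library gave 1 to 2 genes called higher and 40 to 41 called lower. The median of the proteasome genes was -0.35 with library size alone and -0.32 with the length and GC offset, and -0.49 to -0.42 with a library left out. For library size alone the medians were -0.33 (20S alpha), -0.41 (19S ATPases), -0.34 (other cap subunits) and -0.36 (assembly chaperones), and 12 partners were called lower. For the length and GC offset they were -0.29 (20S alpha), -0.36 (20S beta), -0.36 (19S ATPases), -0.32 (other cap subunits), -0.06 (activators and inhibitor) and -0.29 (assembly chaperones). With a library left out the 20S alpha median ran from -0.49 to -0.41, and that of the other cap subunits from -0.51 to -0.41. The sign turned for Psme4 with the offset (-0.06), for Psme1 without R783H B (-0.05) and without WT C (-0.01; range -0.05 to 0.07 with a library left out), and for Trim71 with the offset (-0.24) and without R783H A (-0.02), R783H C (-0.01), WT A (-0.02) or WT B (-0.02; range -0.02 to 0.13). It also turned for Akirin2, which no alternative called, with upper-quartile factors (0.00), library size alone (0.07), the offset (0.12) and a library left out (range -0.09 to 0.05). The cause of these shifts was not tested. Deviations of libraries with the same letter correlated at -0.07, 0.01 and 0.09 for A, B and C, so the letters were not taken to pair the libraries; with the replicate block 41 genes were called lower and 2 higher, at a median of -0.44, and Psmc6 (-0.18) was the sole tested proteasome gene whose call it changed. Depth limits Psmb8, Psmb9 and Psmb11, which had at most 7 counts in a library.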
